A study of Homo sapiens with 15 samples.

Results

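Stable cohesin sites without GATA2 or RUNX1 are stretches of the genome where the cohesin subunit SMC3 was called in cells with mutant RAD21 and in cells with wild-type RAD21, and where neither transcription factor was called in either. The peaks of all 6 deposited lists were joined on the autosomes wherever they overlapped by at least 1 bp, and a joined region was kept if it held an SMC3 peak of both lines and no GATA2 or RUNX1 peak of either line. This left 22255 regions, which are the members described here. They were 23.1% of all 96158 autosomal regions, 51.3% of the 43376 regions with any SMC3 peak, and 77.3% (95% Wilson interval 76.8 to 77.8%) of the 28781 regions with SMC3 in both lines. The members were chosen by the authors' peak calls in all 6 lists, so the presence of SMC3 and the absence of the transcription factors are not results.

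The cells were TF-1, a human erythroleukemia line grown in medium with cytokines, which carried a doxycycline-inducible vector for RAD21. One line expressed RAD21 Q592*, in which a premature stop codon replaces a glutamine, and the other expressed WT RAD21. Both were induced for 6 days, so the WT line carried the vector and received doxycycline as well. The labels give neither the promoter of the vector, nor the number of clones, nor the level of the cells' own RAD21. Each line had 2 SMC3, 2 GATA2 and 2 input libraries. RUNX1 had 1 library in Q592* and 2 in WT. Chromatin was fixed with 1% formaldehyde for 10 minutes and sheared to about 200 to 400 bp.

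Cohesin is a ring built of SMC1A, SMC3, RAD21 and a STAG subunit, and RAD21 closes the ring. The complex holds sister chromatids together and extrudes chromatin loops, and it commonly stops where the DNA-binding protein CTCF sits. In many cell types cohesin is found at such CTCF-bound positions and also at enhancers and promoters that hold tissue-specific transcription factors, among them GATA2 and RUNX1 in blood progenitors. CTCF was not measured in this study, so whether a member carries it is unknown.

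Each line and target is represented by 1 peak list pooled over its libraries. There is thus no replicate spread and no test of Q592* against WT, and every difference given below is one between pooled lists. The Q592* SMC3 list held 32789 peaks and the WT list 42353. Their lowest −log10 q-values were 2.00 and 2.01, so weaker binding cannot be seen. For the members, 2 kinds of values are given. The first are the authors' fold enrichment and −log10 q of each peak. The second is the ChIP coverage at the summit, recovered from these values as a whole number of reads and expressed as a multiple of the list's genome-wide background. The local background around a summit is given on the same scale. Intervals of medians and shares are 95% intervals. They describe the scatter of regions within these lists and leave out the variation between libraries. Regions of 1 list share libraries, depth and background and are not independent replicates.

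The members made up most of the strong SMC3 peaks and few of the weak ones. Of the 43376 SMC3 regions 66.4% were called in both lists, and of the regions called in both 77.3% had no transcription factor. Both shares belong to the rule. The deciles below were cut on the −log10 q that also decided the calls, so a rise of the members' share with strength is in part set by the rule. In decile 1, the weakest by −log10 q, 21.3% of the Q592* SMC3 regions and 5.95% of the WT SMC3 regions were members. In the Q592* list the share was 55.8% in decile 3 and 83.7% in decile 5, and it reached its highest value, 88.0%, in decile 6. In the WT list it was 20.1% in decile 3 and 56.8% in decile 5, and it reached its highest value, 86.3%, in decile 7. In the strongest decile the members were 82.1% of the Q592* regions and 81.7% of the WT regions, and the rest carried a transcription factor, since no region called in 1 line alone reached it. Over the whole lists the members were 70.3% of the 31666 Q592* SMC3 regions and 55.0% of the 40491 WT SMC3 regions.

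**Figure D1:**
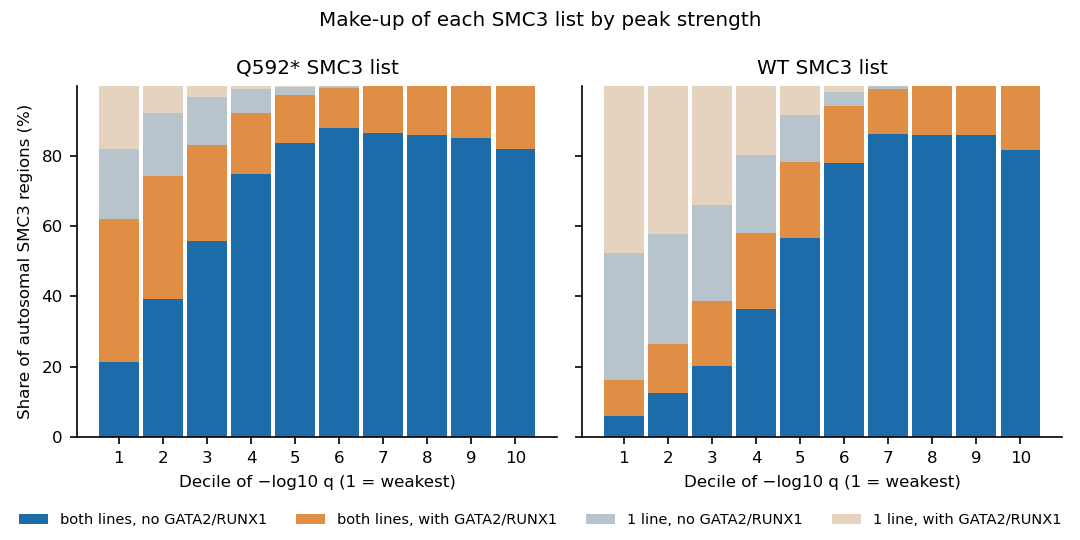
Share of autosomal SMC3 regions (%) that were members, that were called in both lines with a transcription factor, or that were called in 1 line, by decile of −log10 q within the Q592* list (left) and the WT list (right). Members are 21.3% of the weakest and 82.1% of the strongest decile in Q592*, and 5.95% and 81.7% in WT. The rise with strength is in part set by the rule.

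The members had a median fold enrichment of 6.78 (interval 6.72 to 6.82) in Q592* and 7.10 (7.03 to 7.17) in WT. The middle 90% of the members lay between 3.19 and 15.2 in Q592* and between 3.06 and 17.6 in WT. Their median −log10 q was 33.8 in Q592* and 39.05 in WT, and 84.6% of them had a −log10 q of at least 10 in both lists. Ranked within its own list, the median member stood at percentile 59.5 in Q592* and at percentile 68.4 in WT. The median of the difference per member, Q592* minus WT, was −6.58 percentile points. The WT list is longer and holds more weak peaks, so ranks in the lists do not measure a difference in binding.

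The typical member rested on nearly equal numbers of ChIP reads in both lines. The median count at the summit was 93 reads in Q592* and 98 reads in WT, with ranges of 20 to 600 reads and 19 to 499 reads. As a multiple of the genome-wide background the median coverage was 17.8 (17.6 to 18.0) in Q592* and 20.3 (19.9 to 20.5) in WT. The median log2 ratio of coverage, Q592* over WT, was −0.15 over all 28781 shared SMC3 regions, while the log2 ratio of the raw reads had a median of −0.03. The narrowest peaks were 151 bp in Q592* and 126 bp in WT. The level of SMC3 as a whole therefore could not be compared between the lines, and the ratios below were centred on the median of all shared SMC3 regions. A centred ratio of 0 means that a region had the median ratio of all shared regions.

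Centred in this way, the coverage ratio of most members lay close to the centre. The members were 77.3% of the regions that set the centre, so their median had to lie near 0. Their spread around it was not fixed in this way. The median centred log2 ratio of the members was −0.02 (−0.02 to −0.01, SD 0.28), and 76.3% of them lay within 1.25-fold and 95.1% within 1.5-fold of the centre. At least 1.5-fold lower in Q592* were 487 members (2.19%), against 1.94% of all shared SMC3 regions. At least 1.5-fold higher in Q592* were 603 members (2.71%), against 2.83% of all shared SMC3 regions. The members are most of all shared regions, so these shares had to be near each other. Of the 6526 shared SMC3 regions with a transcription factor, 1.07% (0.85 to 1.35%) were at least 1.5-fold lower in Q592*. At least 1.5-fold higher were 3.23% (2.83 to 3.69%) of them. The members' intervals were 2.00 to 2.39% lower and 2.50 to 2.93% higher, so only the lower shares had intervals that did not overlap. Beyond 2-fold there were 16 members lower (0.0719%) and 34 members higher (0.153%) in Q592*, against 0.0625% and 0.156% of all shared SMC3 regions. Because a member had to be called in both lists, a region that lost or gained its whole peak could not be among them.

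The agreement between the lines was closer in coverage than in the authors' enrichment values. Across the 22255 members Spearman's rho between Q592* and WT was 0.95 for coverage, 0.87 for −log10 q and 0.67 for fold enrichment. The local background, by which coverage is divided to give the fold, had a rho of 0.78 between the lines. It also differed among the members. Its median was 2.38 times the genome-wide value in Q592* and 2.34 times in WT, and it was at least 4 times that value at 19.8% of the members in Q592* and at 27.3% in WT. Within a line, members with more coverage had more local background, with a rho of 0.63 in Q592* and 0.63 in WT. Regions of 1 list share libraries and depth, so these correlations are a description and no p-value is given.

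The spread of the members' ratio was above counting error in every strength class. The shared SMC3 regions were divided into 5 strength classes of equal size by the mean log2 coverage of both lines. In class 1, the weakest, the members' ratio had an SD of 0.37, where the read counts alone would give 0.33. Shared SMC3 regions with a transcription factor had an SD of 0.30 in class 1, below their 0.34 from counting, and were above counting in every other class. The counting value is thus no strict lower bound in class 1. In class 3 the SD was 0.29 against 0.22 from counting, and in class 5, the strongest, it was 0.17 against 0.14. Members of class 5 past 1.5-fold were rare, with 0.224% lower and 0.0611% higher in Q592*. In class 1 these shares were 2.94% and 9.33%. Shared SMC3 regions with a transcription factor likewise had few past 1.5-fold in class 5, with 0.118% lower and 0% higher, and more in class 1, with 0.831% lower and 6.06% higher.

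**Figure D2:**
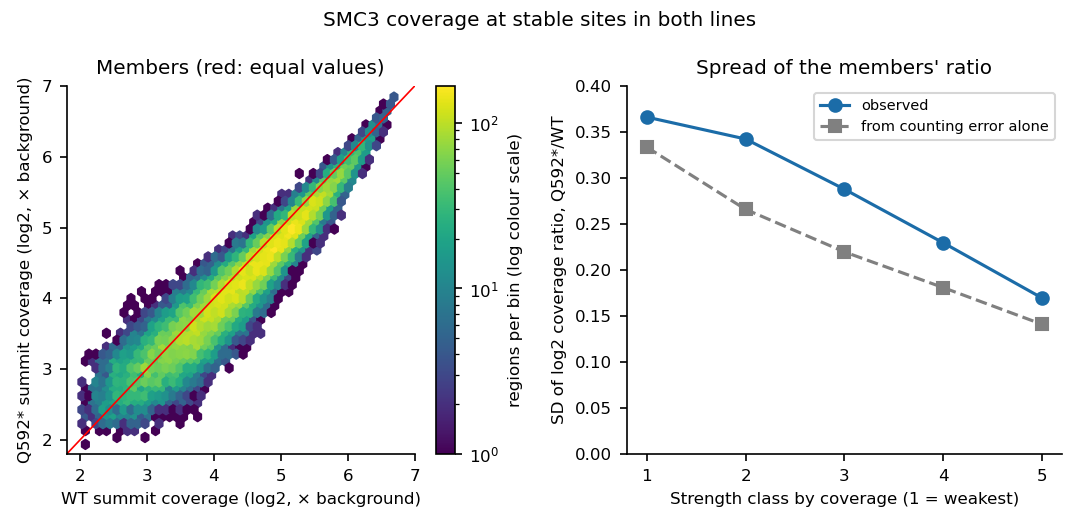
Left, SMC3 coverage at the summit of each of the 22255 members as log2 of the multiple of the genome-wide background, Q592* (vertical) against WT (horizontal), with colour giving the number of regions. Right, SD of the members' log2 coverage ratio by strength class, observed and as read counts alone would give, falling to 0.17 and 0.14 in class 5.

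The position of SMC3 at the members was nearly the same in both lines. The Q592* and WT summits lay a median of 15 bp apart. They were within 20 bp of each other at 63.7% of the members, within 50 bp at 93.8% and within 100 bp at 99.02%. The Q592* summit was at the higher coordinate in 48.7% of the members, so neither direction along the chromosome was favoured by more than a small margin. Nearly all members, 99.2%, held exactly 1 SMC3 peak of each line. The members were narrow, with a median region width of 380 bp. Their peaks had a median width of 350 bp in Q592* and 308 bp in WT, each of which includes the list's own minimum width.

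The members differed from the 6526 shared SMC3 regions that carried GATA2 or RUNX1 in strength and summit position. Median coverage was 17.8 at the members and 11.9 at the regions with a transcription factor in Q592*, and 20.3 and 12.6 in WT. The median region width was 380 bp at the members and 586 bp at the regions with a transcription factor, where the peaks of the transcription factors themselves extend the region. The SMC3 peaks alone had a median width of 350 bp at the members and 353 bp at the regions with a transcription factor in Q592*. In WT these widths were 308 bp and 365 bp. Summits within 50 bp of each other were found at 93.8% of the members (93.5 to 94.2%) and at 69.4% (68.2 to 70.5%) of the regions with a transcription factor. These intervals did not overlap. A single SMC3 peak per line was found at 99.2% of the members and at 92.3% of the regions with a transcription factor.

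This difference in summit position was present at matched coverage and was smallest among strong regions. In class 1 the median distance between the summits was 24 bp (23 to 25) at 3364 members and 55 bp (53 to 58) at 2408 regions with a transcription factor. In class 3 it was 15 bp at 4769 members and 20 bp at 990 regions with a transcription factor. In class 5 it was 10 bp (10 to 11) at 4907 members and 12 bp (10 to 13) at 848 regions with a transcription factor, and the intervals overlapped. The share of summits within 50 bp was 80.6% at the members and 46.6% at the regions with a transcription factor in class 1, and 99.5% and 99.1% in class 5.

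The centred coverage ratio was also slightly lower at the members. Its median was −0.02 at the members and 0.05 at the regions with a transcription factor, a difference of −0.07 (−0.08 to −0.06) on the log2 scale. In class 1 the medians were 0.11 at the members and 0.12 at the regions with a transcription factor, with overlapping intervals. In class 2 they were −0.01 and 0.05, in class 3 −0.03 and 0.03, in class 4 −0.05 and 0.02, and in class 5 −0.03 and 0.02, and in these 4 classes the intervals did not overlap. These differences are small beside the SD between members, which was 0.17 in class 5. Among regions at the genome-wide background in both lists, 1801 of them members, the difference was −0.05 with an interval of −0.10 to 0.02, which includes 0.

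**Figure D3:**
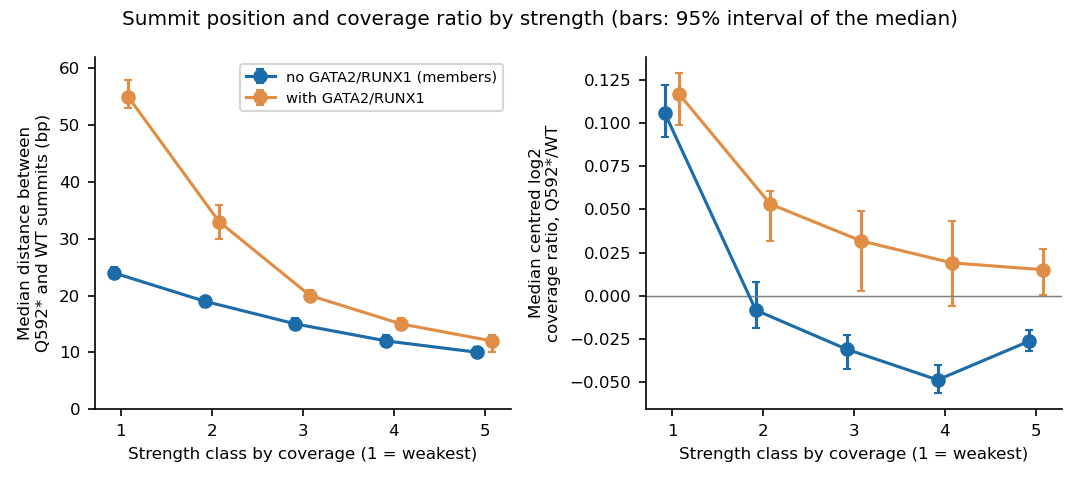
Median distance between Q592* and WT summits in bp (left) and median centred log2 coverage ratio of Q592* over WT (right) by strength class, for members and for shared SMC3 regions with GATA2 or RUNX1, with bars for the 95% interval of the median. Summit distances are 24 and 55 bp in class 1 and 10 and 12 bp in class 5.

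Among the shared regions with a transcription factor, those with RUNX1 alone came nearest to the members in summit position and coverage ratio. The 467 shared SMC3 regions with RUNX1 and no GATA2 had a median coverage of 22.8 in Q592* and 26.1 in WT, a centred ratio of −0.01 (−0.04 to 0.03), and summits within 50 bp in 90.4%. The 3031 regions with both factors had a median coverage of 9.38 in Q592* and 9.94 in WT, a centred ratio of 0.07 (0.06 to 0.08), and summits within 50 bp in 54.3%. The 3028 regions with GATA2 and no RUNX1 lay in between, with a coverage of 15.5 in Q592* and 16.8 in WT and summits within 50 bp in 81.2%.

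The members were not confined to parts of the genome without GATA2 and RUNX1. The median distance from a member to the nearest GATA2 or RUNX1 peak of any list was 15348 bp (15037 to 15654). A peak lay within 1000 bp of 6.16% of the members, within 10000 bp of 38.6% and within 100000 bp of 90.03%. Distances from arbitrary positions of the genome were not measured, so these shares do not show that members lay closer than such positions. The nearest GATA2 peak was a median of 17555 bp away in the Q592* list and 29346 bp away in the WT list. The nearest RUNX1 peak was 54451 bp away in the Q592* list and 101125 bp away in the WT list. These distances shrink as a list grows, and the Q592* lists held 59009 GATA2 and 15582 RUNX1 peaks against 38962 and 9603 in WT.

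Coverage at the members varied little with distance up to 100000 bp. Members within 1000 bp of a transcription factor peak had a median coverage of 17.2 in Q592* and 19.9 in WT, and those 5000 to 20000 bp away had 19.5 in Q592* and 22.2 in WT. The 2218 members farther than 100000 bp had 12.6 in Q592* and 13.9 in WT, and they were narrower, at 321 bp. Median summit distances were 14 to 17 bp in all 5 distance bins.

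Members lay farther from GATA2 and RUNX1 than SMC3 regions of 1 line alone that carried no transcription factor peak either. The median distance was 15348 bp at the members, 12183.5 bp (11176 to 13515) at the 1946 Q592*-only regions and 7210 bp (6843 to 7720) at the 5493 WT-only regions. The regions of 1 line were weaker, and compared within ranges of −log10 q between 2 and 50 the order of the medians was the same. Between 5 and 10 in the WT list, 1643 members had a median distance of 16796 bp (15358 to 18498) and 2553 WT-only regions had 7580 bp (6960 to 8280). Between 10 and 20 in the WT list the medians were 17570 bp at the members and 11540 bp at the WT-only regions. In the Q592* list between 5 and 10, 2097 members had 15170 bp (14204 to 16267) and 976 Q592*-only regions had 13157.5 bp (11474 to 14786), with overlapping intervals. The intervals also overlapped in every other range of the Q592* list up to 50, while in the WT list they overlapped in none. At matched strength the difference was thus clear of the intervals for WT-only regions alone.

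Neighbouring members were spaced a median of 60397 bp apart (59156 to 61669), measured between their midpoints. The next member was within 10000 bp for 15.0% of them and within 100000 bp for 65.3%. The regions with a transcription factor were fewer and lay a median of 125025.5 bp apart. Members next to each other had weakly similar coverage ratios: Spearman's rho was 0.16 for 3327 neighbours under 10 kb apart, 0.12 for 11194 neighbours 10 to 100 kb apart and 0.06 for 7712 neighbours farther apart. Neighbours share libraries and local background, and the values are a description.

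**Figure D4:**
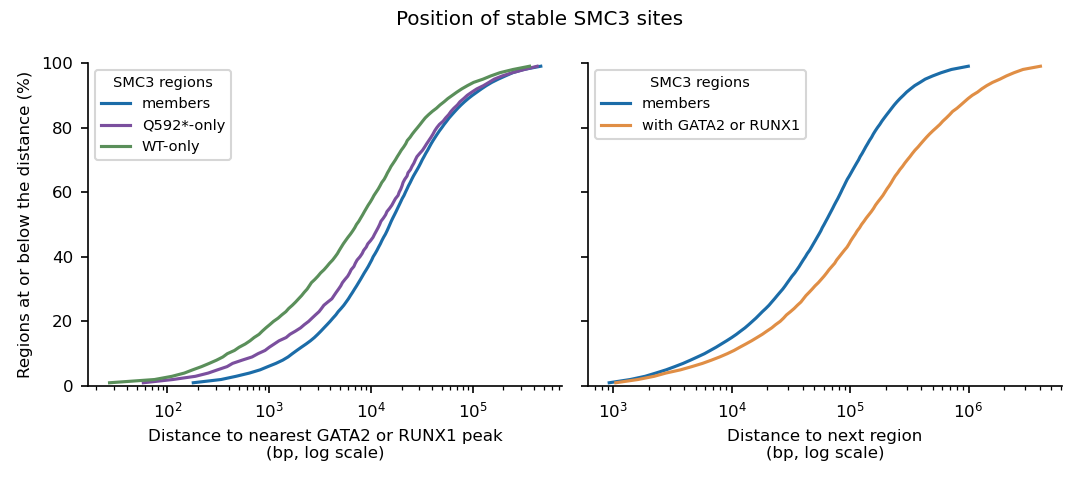
Cumulative share of regions (%) against distance in bp on a log scale, to the nearest GATA2 or RUNX1 peak for members and for Q592*-only and WT-only SMC3 regions without a transcription factor (left), and to the next region of the same class for members and for shared SMC3 regions with a transcription factor (right). The members' medians are 15348 bp and 60397 bp.

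Members were found on all 22 autosomes, at 5.60 per Mb on chromosome 4 and 16.1 per Mb on chromosome 19. They were 69.0% of the shared SMC3 regions on chromosome 6 and 88.3% on chromosome 19, shares that belong to the rule. On chromosome 19 their median local background was also the highest, at 4.24 in Q592* and 5.44 in WT. The 1-Mb windows that held any member had a median of 8 members. The fullest windows were on chromosome 1 from 156000001 to 157000000 and on chromosome 11 from 65000001 to 66000000, with 35 members each, and on chromosome 17 from 46000001 to 47000000, with 34. The longest stretch without a member ran over 23.2 Mb of chromosome 1, from 120926157 to 144094682, and held 3 SMC3 regions, none of them shared. A stretch of 23.1 Mb on chromosome 9, from 44227664 to 67290350, held 4 SMC3 regions, also none of them shared. One of 12.0 Mb on chromosome 16, from 34626052 to 46588145, held 40 SMC3 regions, of which 6 were shared and carried a transcription factor. All coordinates are those of hg19, counted from 1.

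Chromosome 20 stood apart in the coverage ratio. The median centred log2 ratio of its 614 members was −0.19 (−0.21 to −0.18), while the medians of the other 21 autosomes lay between −0.07 and 0.05. On chromosome 20 7.49% of the members were at least 1.5-fold lower in Q592*, against 1.17 to 3.27% on the others. The lower values were mainly on the part from 30 Mb onwards, a boundary chosen after the values were seen. There 379 members had a median ratio of −0.26 (−0.30 to −0.23), with a coverage of 19.7 in Q592* and 27.1 in WT. The 235 members before 30 Mb had a ratio of −0.09 (−0.13 to −0.05). The local background moved in the same direction: from 30 Mb onwards it had a median of 2.71 in Q592* and 3.71 in WT, with a median log2 ratio of −0.44. Over the whole of chromosome 20 the background ratio was −0.31. It was similar on chromosomes 19 (−0.32), 22 (−0.31), 17 (−0.27) and 16 (−0.26), and weaker on the remaining autosomes. The coverage ratio was −0.07 on chromosome 19 and −0.06 on chromosome 22. The 60 shared SMC3 regions with a transcription factor on chromosome 20 from 30 Mb onwards had a coverage ratio of −0.19. Of 475 windows of 5 Mb with at least 20 members, 12 were on chromosome 20. All 12 had a median ratio below 0, and 7 of them were among the 10 lowest of all windows. The part of the local background in the lower ratio was not tested.

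**Figure D5:**
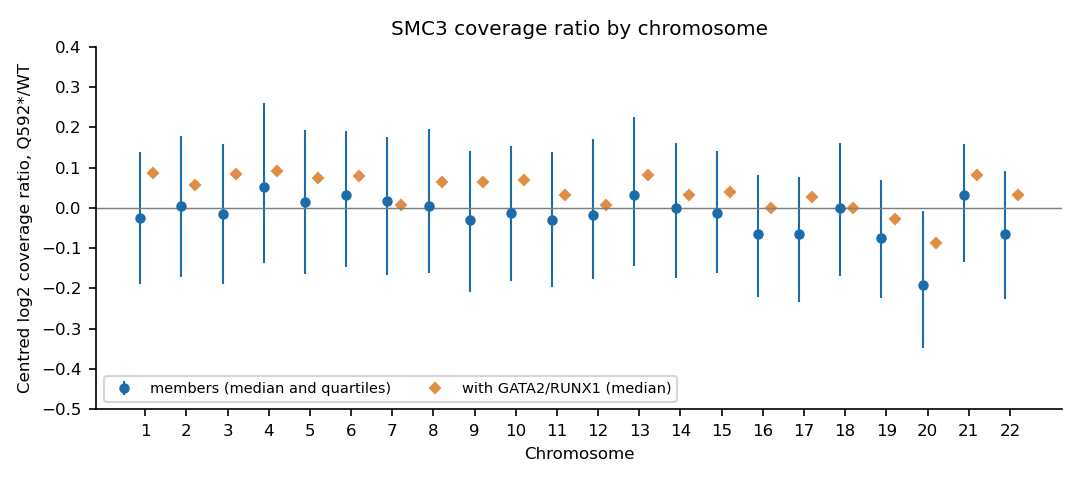
Median and quartiles of the centred log2 SMC3 coverage ratio of Q592* over WT for the members of each autosome, with the median of the shared SMC3 regions with GATA2 or RUNX1 as diamonds. The members of chromosome 20 have a median of −0.19, below the range of −0.07 to 0.05 of the other 21 autosomes.

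The strongest member in Q592* by −log10 q lay on chromosome 17 from 32526857 to 32527618. It had a −log10 q of 348.5 and 365 reads in Q592*, and 342.7 and 403 reads in WT, where it ranked 3 among the members. Its coverage was 69.8 (62.9 to 77.4, exact Poisson interval) in Q592* and 83.4 (75.5 to 92.0) in WT, and its summits were 11 bp apart. The next in Q592* also lay on chromosome 17, from 32688260 to 32688968, with 359 reads in Q592* and 356 reads in WT. The third lay on chromosome 10 from 102193121 to 102194142, with 434 reads in Q592* and 389 reads in WT. The others of the first 5 were on chromosome 13 from 49343028 to 49343811 and on chromosome 1 from 159861115 to 159861788, with 391 and 337 reads in Q592* and 362 and 320 reads in WT. The strongest member in WT, on chromosome 10 from 97360588 to 97361503, had 383 reads in Q592* and 405 reads in WT, but a fold of 18.7 in Q592* and 44.2 in WT. Its local background was 3.69 in Q592* and 1.66 in WT. These 6 members were well covered in both lines, and each stood above percentile 99 of both lists.

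The members whose rank differed most between the lists also differed in local background. The rank is that of −log10 q, which rests on coverage and local background. Members picked by it therefore had to differ in coverage, in local background or in both. On chromosome 10 from 21784599 to 21784997 a member stood at percentile 56.4 in Q592* and 1.25 in WT. It had 89 reads in Q592* and 87 reads in WT, and a local background of 2.53 in Q592* and 10.4 in WT. On chromosome 13 from 24152841 to 24153123 the percentiles were 54.6 in Q592* and 0.0673 in WT, with 90 reads in Q592* and 82 in WT and a local background of 2.71 in Q592* and 10.1 in WT. In the other direction, a member on chromosome 13 from 23661987 to 23662340 stood at percentile 4.53 in Q592* and 72.9 in WT. It had 43 reads in Q592* and 79 reads in WT, with a local background of 2.96 in Q592* and 1.24 in WT, so its coverage differed as well.

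The members with the most extreme centred ratios, named after their values were seen, were of modest coverage. The lowest ratio, −1.21, was on chromosome 4 from 4109296 to 4109486, with 27 reads in Q592* and 64 reads in WT. Its coverage was 5.17 (3.40 to 7.52) in Q592* and 13.3 (10.2 to 16.9) in WT. Another of the lowest ratios, −1.07, was on chromosome 20 from 50317374 to 50317586, with 49 reads in Q592* and 105 reads in WT. The highest ratio, 1.37, was on chromosome 6 from 64633115 to 64633376, with 81 reads in Q592* and 32 reads in WT and a local background of 1.22 in Q592* and 1.24 in WT. The next highest, 1.30, on chromosome 4 from 73887301 to 73887710, had 77 reads in Q592* and 32 reads in WT, with both lines at the genome-wide background. At all 4 the Poisson intervals of the lines did not overlap, but they are the extremes of 22255 members.

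Some regions lay close to the edges of the rule. The member with the lowest −log10 q in either list, on chromosome 4 from 174337459 to 174337690, had a −log10 q of 2.02 in Q592* and 7.31 in WT. Just outside, the strongest SMC3 region of WT alone without a transcription factor, on chromosome 11 from 108288311 to 108288604, had a −log10 q of 48.9 in WT and no peak in Q592*. The strongest of Q592* alone, on chromosome 2 from 27308409 to 27308670, had a −log10 q of 37.3 in Q592* and no peak in WT. Both values were above the members' median in the same list, whereas the median −log10 q was 7.34 at the Q592*-only regions and 6.72 at the WT-only regions. On the transcription factor side, 2 members touched a GATA2 or RUNX1 peak without sharing a base with it, on chromosome 5 from 39219532 to 39219984 and on chromosome 7 from 30934741 to 30934942. Of the shared SMC3 regions kept out by a single such peak, the one with the highest −log10 q in either list, on chromosome 1 from 94279324 to 94279967, carried a Q592* GATA2 peak and had an SMC3 −log10 q of 213.9 in Q592* and 302.5 in WT. At the far end, the most distant from any transcription factor peak of the members outside chromosome 8, on chromosome 9 from 42368002 to 42368207, was 1637232 bp away and had 36 reads in Q592* and 52 reads in WT.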

How the data were processed

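ChIP-seq of SMC3, GATA2 and RUNX1 was analysed from 6 pooled peak lists made from 11 ChIP and 4 input libraries. Reads were processed with Bowtie2, Picard and MACS2 on the build hg19, per the submitters' processing notes. No source used here gives versions or settings. The deposited fold enrichment is the ratio of ChIP coverage to local background at the summit, with 1 added to each on the scale of MACS2, and the authors also deposited its −log10 p-value and −log10 q-value. The deposited score was not used.

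ChIP reads and local background at each SMC3 summit were recovered from the deposited fold and −log10 p. They gave whole reads for 100% of the peaks of both lists within 0.002 of the −log10 p, against 1.34% (Q592*) and 0.987% (WT) with the worth of a read set wrong by 3%. Genome-wide background was 4.06 in Q592* and 4.05 in WT on the scale of MACS2, on which 1 ChIP read was worth 0.777 in Q592* and 0.838 in WT. Summits held a median of 77 reads in Q592* and 61 in WT over all peaks of the lists, which sets the counting error of single regions. Recovery, joining and distances were tested on simulated data. Distances run between edges, except spacing, which runs between midpoints. Medians carry order-statistic intervals. Shares carry Wilson intervals, and single coverages exact Poisson intervals, which cover counting error only.

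The members and lists were chosen with earlier results of these data known. Named regions are the 5 with the highest −log10 q in each line, the 3 largest differences of percentile each way, the 3 nearest and 3 farthest from a transcription factor, the 3 weakest, the 3 fullest windows and longest stretches, and the 3 strongest regions just outside each part of the rule, of which the text prints some. Regions of chromosome 8 are not named. Gene lists, transcription starts and motifs had been planned, but no hg19 annotation or sequence was used. The regions therefore have no gene names and no printed sequence. Alternatives were stricter thresholds, equal list lengths, other overlap rules and all chromosomes. Python 3.11.15 was used, with scipy 1.17.1 for Poisson probabilities, pandas 2.3.3 and numpy 2.4.6 for tables, and matplotlib 3.10.9 for figures.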

Additional observations from a re-analysis of the deposited data

How the results depend on the processing

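Of 85 values under other settings 59 were counted as not moved, 26 as moved and 0 as reversed in direction. The 59 include all 9 alternative numbers of members, which carry no interval. The number of members ranged from 18838 to 23466, against 22255 in the main setting, so it did not stay close throughout. With a −log10 q of at least 10 in the SMC3 lists, members were 84.6% of the shared SMC3 regions, with a median fold of 7.46 in Q592* and 7.83 in WT, a percentile difference of −6.05, summits 14 bp apart and a spacing of 69119 bp. With SMC3 lists of equal length these were 79.8%, 6.94, 7.31, −7.01, 14 bp and 62388 bp, and the difference in coverage ratio between members and regions with a transcription factor was −0.054. The percentile difference of −7.01 was still taken from ranks in the full lists, so it does not correct for the longer WT list. With a −log10 q of at least 10 in the GATA2 and RUNX1 lists the share was 81.5%, the spacing 57525.5 bp and the distance to a transcription factor 21164.5 bp. A reciprocal overlap of 50% gave 79.8%, a WT fold of 7.18 and a spacing of 62352 bp. Summits within 200 bp gave 78.0%, and 1 SMC3 peak from each line gave 78.6%. Leaving out members within 1000 bp of a transcription factor peak gave 72.6%, a spacing of 64719 bp and a distance of 17092 bp. Stricter thresholds and margins remove regions by construction; the cause of the other shifts was not tested. Of settings added after seeing the data, leaving out chromosome 20 moved neither the percentile difference nor the difference in coverage ratio, while keeping regions at the genome-wide background in both lists (−0.054) or only strength classes 3 to 5 (−0.053) moved the difference in coverage ratio. Motif and transcription start results were not run. No paired analysis was possible because the pooled lists carry no replicate numbers, and for the same reason no library could be left out. Weak members rest on few reads, from 20 in Q592* and 19 in WT.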

Other observations

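Chromosome X, which the rule leaves out, held 729 SMC3 regions called in both lines, of which 640 (87.8%, interval 85.2 to 90.0%) carried no GATA2 or RUNX1 peak. Their median coverage was 10.1 in Q592* and 11.4 in WT, below the 17.8 and 20.3 of the autosomal members. Their centred log2 ratio was −0.01 and their summits lay a median of 18 bp apart.

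On chromosome 13 from 75 to 100 Mb, a stretch chosen after its values were seen, 147 of 269 shared SMC3 regions were members (54.6%), against 77.3% over all autosomes. This share follows from the GATA2 and RUNX1 calls that the rule used, so it is not a result about SMC3. The members there had a coverage of 16.8 in Q592* and 17.8 in WT and a centred ratio of 0.08 (0.03 to 0.11).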
